A study of Mus musculus with 54 samples.

Results

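S54F emerin and wildtype emerin were compared after 48 h of differentiation, here called day 2, in mouse H2K myogenic progenitors. The members are the genes of the deposited table that sets wildtype T48 beside S54F T48. In total, it listed 17215 genes, of 19653 in the 27 tables of the series, and it rests on 6 of the 54 samples. Every gene of that table was kept, and none was chosen by its value. H2K progenitors are conditionally immortal muscle precursor cells from mice. The wildtype T48 group held 3 samples of a line with intact *Emd* that was not transduced. The S54F T48 group held 3 samples of EMD -/y progenitors, which lack emerin, that were transduced with a lentivirus for emerin with the S54F substitution and selected with puromycin. Both groups had spent the same 48 h in differentiation medium with horse serum, after growth in medium with γ-interferon. The lines also differed in other features, whose parts in any difference cannot be told apart from that of emerin: the parent mice, the transduction with puromycin selection, and the seeding density, which was higher for the transduced lines. The vector-only line was not analysed here. RNA with poly-A tails was sequenced, and the labels number the samples of each group as 3 replicates.

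Emerin is a protein of the inner nuclear membrane with a LEM domain, which binds the chromatin protein BAF, and it also binds lamin A and the histone deacetylase of the NCoR complex. Its loss causes X-linked Emery-Dreifuss muscular dystrophy, and a serine to phenylalanine exchange in emerin is among the changes found in the disease. During differentiation, muscle progenitors leave the cell cycle, switch on myogenin, fuse into myotubes and build sarcomeres.

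The table holds, for each gene, the authors' mean in each group, as a normalised signal, with no value per sample. No spread between replicates was computed, the authors' tests were not used, and every difference below is a description of these means. A difference is the log2 of the S54F mean over the wildtype mean with 1 added to each. A gene is called past the fold where that difference was at least 1 in size and the average of its means was at least 10. The means of a group are not plain averages. In all 27 tables the lowest averages of the means fell at 6 steps, as a read in 1 of 6 libraries would give. The 715 genes at these steps in the table of day 2 had means above 0 in both groups, and no mean of the table was 0. A low mean is thus drawn up by the other group, and a large difference is a moderated value. The means summed to 18500158 in wildtype and 19008954 in S54F, and the depth of each library was not analysed here.

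The signal of the targeted gene, *Emd* (gene ID 13726, X chromosome, bases 74254674 to 74261563 of mm10), went with the labels. The authors' mean of *Emd* was 1014 in wildtype and 1.87 in S54F cells, a log2 difference of −8.47. In the table that sets S54F T24 beside S54F T48, which holds no wildtype library, its means were 0.162 and 0.141. Their average lay at the step of a gene with a read in 1 of the 6 libraries. At day 0 the means of *Emd* were 1917 in wildtype and 2.08 in S54F, and at day 1 they were 1809 and 2.07. The +EMD line, EMD -/y progenitors transduced with wildtype emerin, had a mean of 1.55 at day 2 beside 1032 in wildtype. The values at *Emd* therefore did not show the introduced emerin, whose RNA was not analysed here.

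In total, 706 genes (4.10% of the 17215) were past the fold and higher in S54F, 572 (3.32%) were past it and lower, and 1278 (7.42%) lay past it in either direction. With an average of at least 100 in place of 10, the balance turned, with 273 higher and 284 lower. The median difference over all genes was 0.0012. Among the 12997 genes with an average of at least 10, 51.9% differed by less than 0.25 and 23.3% by 0.25 to 0.5. The largest class past the fold held 895 genes with a difference between 1 and 2 in size, 527 of them higher and 368 lower. Beyond 2, 179 were higher and 204 lower. By kind of gene, 633 of 15233 annotated genes were higher and 417 lower. Genes predicted by the authors' pipeline, named by no symbol, tended the other way, with 56 of 1536 higher and 141 lower. They are left out of the genes named here. Fewer cells of a type and less RNA per cell cannot be told apart in these samples, since each is a culture of many cells.

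**Figure D1:**
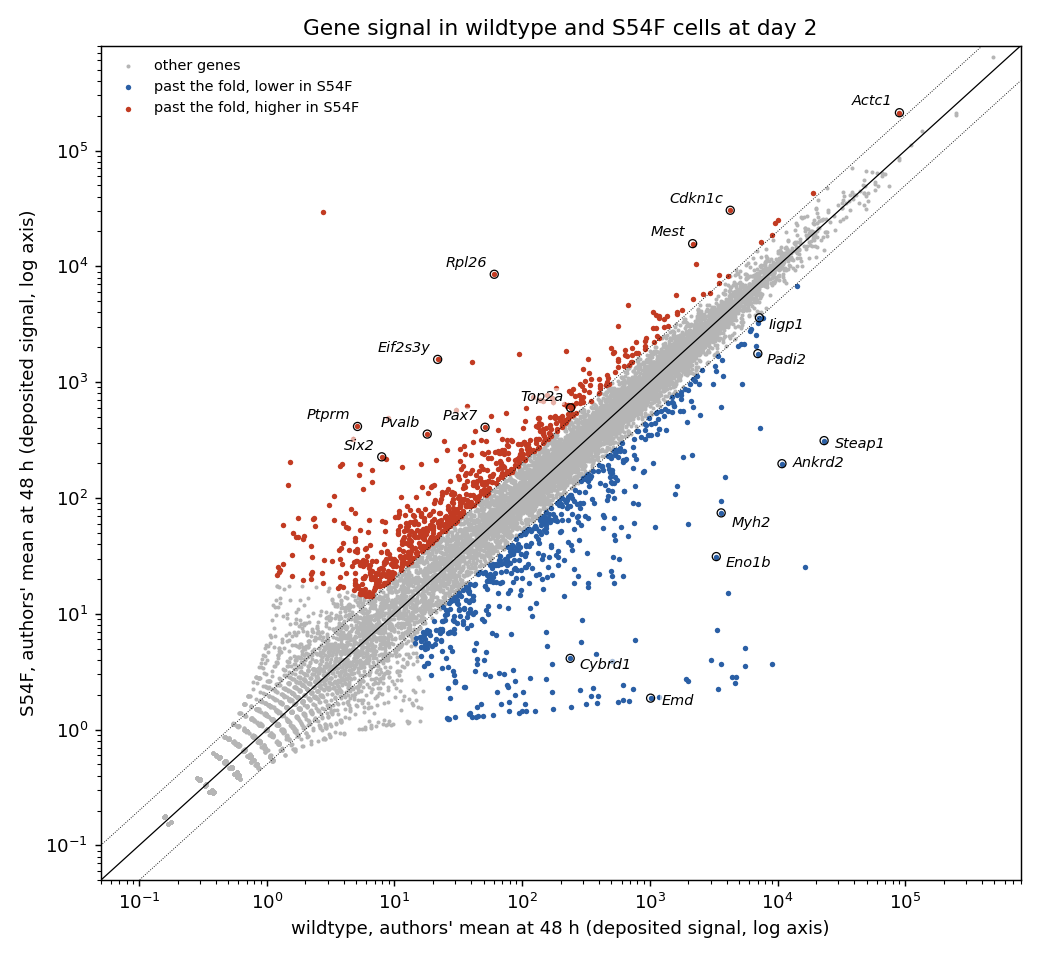
Authors' mean of each of the 17215 genes in wildtype (x axis, log scale) and S54F cells (y axis, log scale) at day 2, in units of the deposited signal. The solid line marks equal means and the dotted lines a fold of 2. Red points are the 706 genes past the fold and higher in S54F, blue points the 572 lower genes. The low means of genes that are high in the other group lie along a floor near 1.

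The 904 members of 40 gene lists, chosen for muscle, the cell cycle, matrix, signalling and other cell types, held 87 genes past the fold and higher (9.62%) and 53 lower (5.86%). Of all genes, 4.10% were past the fold and higher and 3.32% lower. Only genes with an average of at least 10 can be past the fold. Of the 904 members, 821 had such an average, as did 12997 of all 17215 genes. The median difference of the members was 0.067. The lists with the largest medians were mitosis at 1.62 and the insulin-like growth factor axis at 1.00. The interferon response and the Wnt list had the lowest, at −0.76 and −0.42. With 10 in place of 1 added to each mean the Wnt median was −0.14, above those of the basement membrane (−0.25) and of excitation-contraction coupling (−0.22), while the interferon median stayed lowest. Medians of the muscle lists lay between −0.22 and 0.26.

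**Figure D2:**
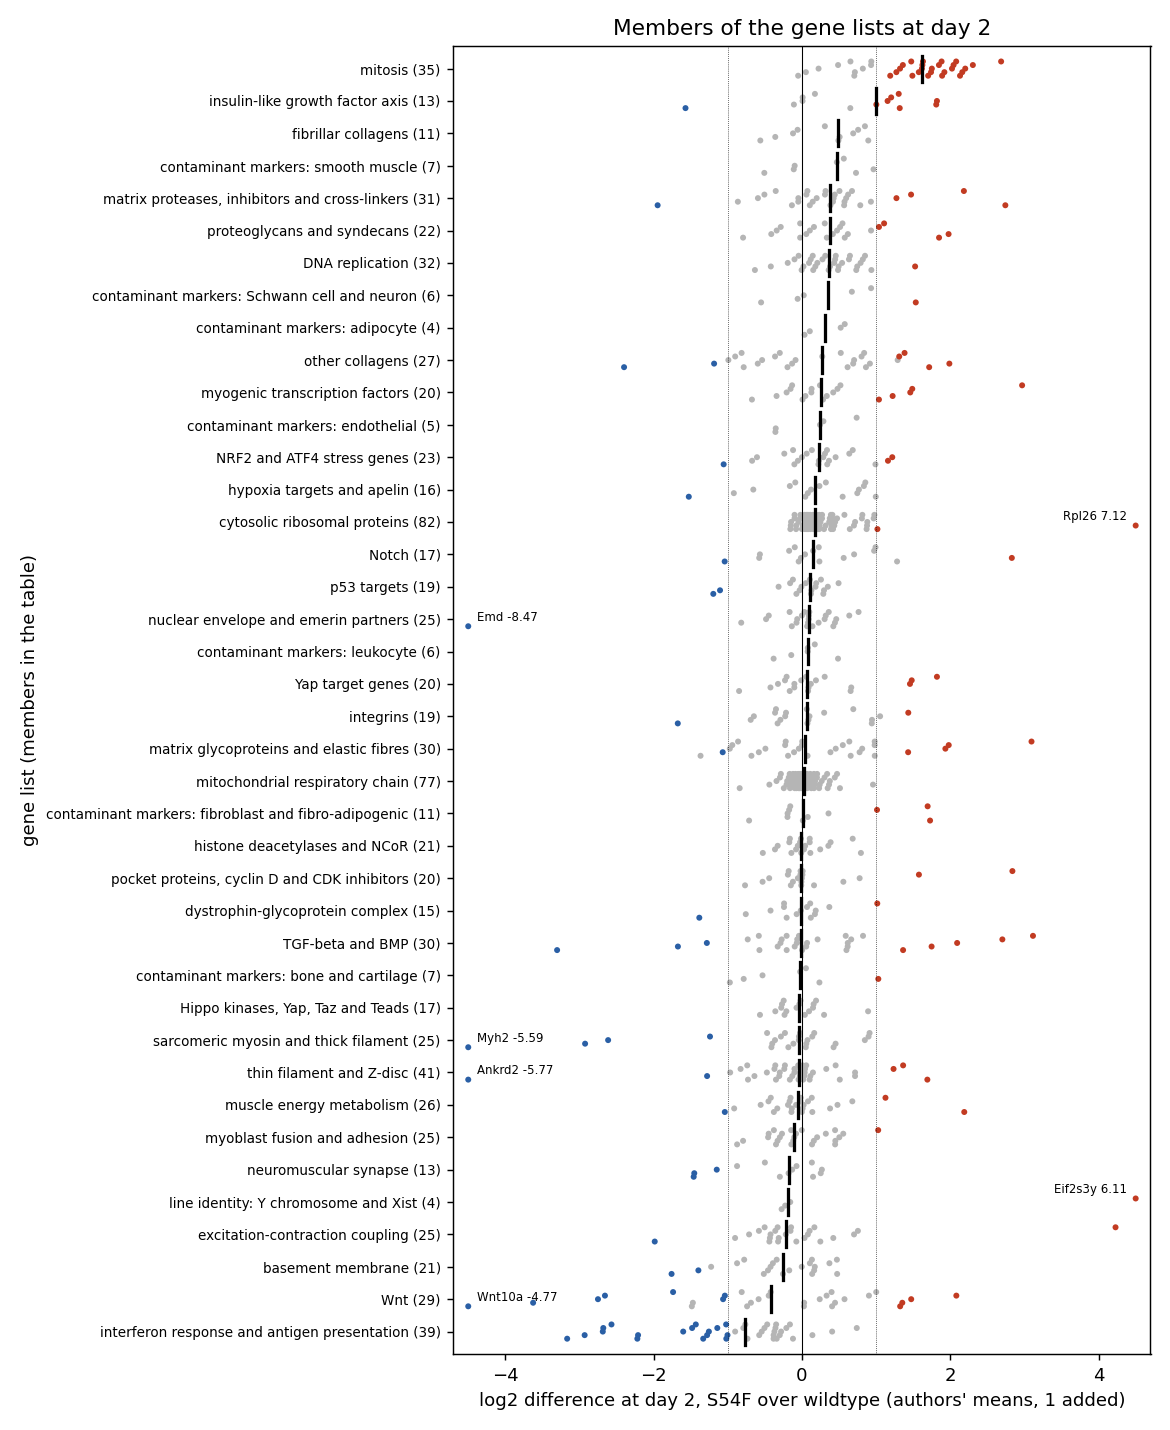
Log2 difference between S54F and wildtype at day 2 (x axis) for every member of the 40 gene lists (y axis, with the number of members in the table). Red and blue points are past the fold and higher or lower, grey points are not past it, and black bars are medians. Members beyond 4.5 in size are drawn at the edge with their values. In the mitosis list 25 of 35 members lie past the fold, all higher, and in the interferon list 17 of 39, all lower.

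The S54F cells held more RNA of genes for mitosis. Of 35 members of that list, 25 were past the fold and higher, where 4.10% of all genes were. No member was past it and lower, and every member but *Cenpf* was above 0. The summed means of the list were 2908 in wildtype and 6682 in S54F. *Espl1*, which encodes separase, the protease that frees sister chromatids, had the largest difference of the list at 2.69, from 12.5 to 85.8. *Bub1b*, a kinase-like protein of the spindle checkpoint, had means of 48.2 and 242, a difference of 2.30. *Mki67*, the coat protein of mitotic chromosomes used as a proliferation marker, had means of 69.4 and 323 (2.20). These genes act at different steps of division, and the list ran the same way across them. Among the mitotic cyclins, *Ccna2* differed by 2.02, *Ccnb1* by 1.88 and *Ccnb2* by 2.13. The kinases that drive entry into mitosis and spindle assembly were 1.63 for *Plk1*, 1.47 for *Aurkb*, 1.62 for *Bub1* and 1.75 for *Ttk*. Below the fold lay the kinase *Cdk1* at 0.82, *Tpx2*, which activates Aurora A, at 0.93, the kinase gene *Aurka* itself at 0.71, and *Ube2c*, a ubiquitin-conjugating enzyme of mitotic exit, at 0.49. *Cenpf*, a kinetochore gene, differed by −0.051.

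Genes for DNA replication differed less than those for mitosis. Of 32 members, only *Tk1*, the thymidine kinase of the salvage pathway, was past the fold (18.8 to 56.1, 1.53), and the median was 0.37. The summed means were 15016 in wildtype and 16413 in S54F. *Mcm2*, a subunit of the replicative helicase, differed by 0.28, *E2f1*, a transcription factor of the entry into S phase, by −0.19, and *Rrm2*, the small subunit of ribonucleotide reductase, by −0.42. The lists lay closer together at the earlier days. At day 0 the medians were −0.10 for mitosis and −0.081 for replication, and at day 1 they were 0.48 and 0.60. The number of mitosis members past the fold and higher was 0 at day 0, where 3.94% of all genes were, 1 at day 1 (3.87% of all) and 25 at day 2 (4.10%). *Pttg1*, which encodes securin, the inhibitor of separase, was the exception in its path: its differences were −2.08 at day 0, −1.06 at day 1 and 2.04 at day 2.

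Between day 1 and day 2 the mitosis list was lower in both lines, with a median of −4.52 in wildtype and −3.59 in S54F. *Mki67* went by −5.72 in wildtype and −3.91 in S54F. *Pttg1* stood apart, with −3.24 in wildtype and −0.12 in S54F. The replication list had medians of −2.08 in wildtype and −2.37 in S54F. At day 2 the lines were thus nearer each other in replication genes than in mitosis genes.

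The other lines at day 2 were set against the same wildtype T48 libraries, so their values are not independent of those of S54F. The median of the mitosis list was 1.31 in EMD -/y, 3.61 in Δ95–99, 3.02 in Q133H and 3.75 in +EMD cells, beside 1.62 in S54F. The replication list had medians of 0.38, 2.09, 1.60 and 2.23 in the same order. In both lists the S54F value lay next to that of EMD -/y and below those of the other transduced lines, +EMD included.

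**Figure D3:**
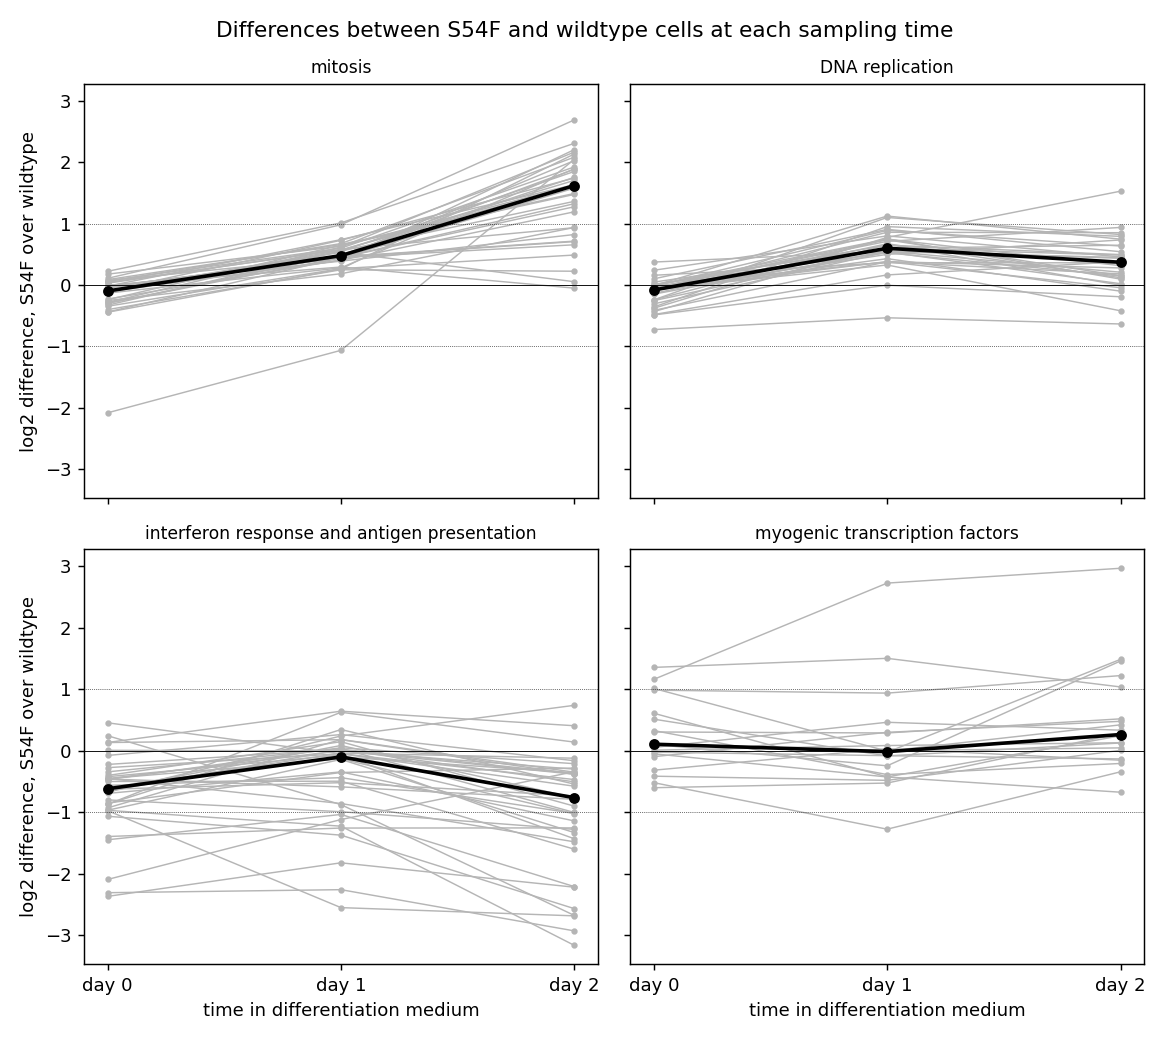
Log2 difference between S54F and wildtype (y axis) at days 0, 1 and 2 (x axis) for members of 4 gene lists. Grey lines are genes, the black line is the median of the list, and dotted lines mark a fold of 2. The median of the mitosis list went from −0.10 at day 0 to 1.62 at day 2, while that of the replication list was highest at day 1, at 0.60.

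The letters TTTGAA are the core of the element known as CHR, which is bound by the DREAM and MuvB complexes in genes of the late cell cycle. Promoters were the 300 bases of each gene in the RefSeq table, searched on both strands (TTTGAA or TTCAAA). The letters were in 5878 of all 32851 promoters (17.9%) and in those of 15.0% of the genes of the day 2 table with a promoter. Of the 25 mitosis genes past the fold, 22 had a promoter and 15 of these held the letters. Over all mitosis genes it was 22 of 31, so that the letters did not set apart the members past the fold. The letters were chosen after values were seen. A match is a description and does not show a site in use. The promoters of *Espl1* and *Bub1b*, the members with the largest differences, are shown with the match in capitals (GRCm38.p6, plus strand, chr15:102296043-102296342 and chr2:118597961-118598260).
Espl1: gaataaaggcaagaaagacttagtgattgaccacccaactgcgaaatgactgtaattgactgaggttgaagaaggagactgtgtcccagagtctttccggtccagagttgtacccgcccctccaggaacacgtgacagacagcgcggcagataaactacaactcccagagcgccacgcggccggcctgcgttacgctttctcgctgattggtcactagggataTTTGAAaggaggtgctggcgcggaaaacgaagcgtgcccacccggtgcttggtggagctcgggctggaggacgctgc
Bub1b: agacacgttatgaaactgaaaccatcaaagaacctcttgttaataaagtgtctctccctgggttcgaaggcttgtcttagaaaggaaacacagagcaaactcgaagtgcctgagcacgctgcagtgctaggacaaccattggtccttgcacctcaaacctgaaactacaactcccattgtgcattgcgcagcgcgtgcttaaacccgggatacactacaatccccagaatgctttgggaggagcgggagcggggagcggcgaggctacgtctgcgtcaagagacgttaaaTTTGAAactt

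Regulators of the exit from the cell cycle did not move as a group. Of 20 members of the list of pocket proteins, D cyclins and inhibitors of cyclin-dependent kinases, *Cdkn1c* and *Ccnd1* were past the fold, both higher. The median of the list was −0.014, and 4.10% of all genes were past the fold and higher. *Cdkn1c*, an imprinted inhibitor of cyclin-dependent kinases that is switched on in differentiating muscle, had means of 4263 and 30484 (2.84). It was higher at day 0 (3.42) and day 1 (2.70) as well. *Ccnd1*, cyclin D1 of the passage through G1, had means of 635 and 1897 (1.58), with −0.066 at day 0 and 0.87 at day 1. *Cdkn1a*, the inhibitor that myogenic cells switch on at cell cycle exit and the most abundant member per length in wildtype, differed by −0.12. The retinoblastoma gene *Rb1* differed by −0.15 and *Ccnd3*, cyclin D3 of differentiating muscle, by −0.44.

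Interferon genes were lower in S54F. Of 39 members of the list of interferon response and antigen presentation, 17 were past the fold and lower, where 3.32% of all genes were. No member was past it and higher, and 36 were below 0. The summed means were 118637 in wildtype and 97999 in S54F. *Isg15*, a ubiquitin-like protein that is joined to other proteins in the antiviral state, had means of 801 and 88.4, the largest difference of the list at −3.17. *Irf7*, a transcription factor that amplifies type I interferon, had means of 428 and 71.3 (−2.57). *Ifit1*, which binds viral RNA lacking a host cap, had means of 441 and 68.0 (−2.68). The signalling factors of the pathway lay in the same direction. *Stat2* differed by −1.28 and *Irf9*, its DNA-binding partner, by −1.43. The list also held genes of the γ-interferon response: the chemokine *Cxcl9* (−2.93), the GTPases *Gbp5* (−2.22), *Igtp* (−1.33), *Irgm1* (−1.02) and *Iigp1*, with means of 7214 and 3596. Of antigen presentation, the heavy chain gene *H2-K1* differed by −0.73 and the proteasome subunit gene *Psmb9* by −0.35. *B2m*, the light chain of class I molecules and the most abundant member per length, was above 0 at 0.41. Also above 0 were the GTPase genes *Gbp4*, the highest member of the list (1438 to 2402, 0.74), and *Mx1* (0.14), while *Gbp2* was at −0.16.

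Fewer interferon genes were past the fold before day 2. The list held 6 lower members past the fold at day 0, where 4.26% of all genes were, and 8 at day 1 (4.52% of all), with medians of −0.62 and −0.10. *Isg15* differed by −0.97 at day 0 and −1.23 at day 1. *Ifit1* differed by 0.25 at day 0, −0.88 at day 1 and −2.68 at day 2. From day 1 to day 2, *Isg15* was 0.71 in wildtype and −0.97 in S54F, and *Irf7* was 0.43 and −0.50, so that the lines moved apart in these genes. Against the same wildtype libraries at day 2, the median of the list was −0.16 in EMD -/y, 0.31 in Δ95–99, 0.23 in Q133H and −0.88 in +EMD cells. The S54F and +EMD medians were thus the lowest of the 5 lines.

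The letters GAAA followed after 2 bases of any kind by GAAA again, a core of the element bound by interferon regulatory factors, were searched in the same promoters, with TTTC, 2 bases and TTTC on the other strand. They were in 1131 of the 32851 promoters (3.44%) and in those of 3.80% of table genes with a promoter. Of the 17 interferon genes past the fold, 15 had a promoter and 11 of these held the letters, and over all interferon genes it was 16 of 30. The promoters of *Isg15* and *Ifit1* are shown because these genes had the largest differences among members past the fold whose promoter held the letters. That of *Cxcl9*, which differed more than *Ifit1*, did not hold them. Matches are in capitals (GRCm38.p6, chr4:156200769-156201068, minus strand, and chr19:34640639-34640938, plus strand).
Isg15: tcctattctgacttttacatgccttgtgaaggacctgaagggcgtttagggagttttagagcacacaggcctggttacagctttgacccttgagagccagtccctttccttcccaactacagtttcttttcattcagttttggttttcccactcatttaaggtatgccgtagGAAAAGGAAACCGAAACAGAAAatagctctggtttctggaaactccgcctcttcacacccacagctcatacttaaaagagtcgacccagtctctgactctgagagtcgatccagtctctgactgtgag
Ifit1: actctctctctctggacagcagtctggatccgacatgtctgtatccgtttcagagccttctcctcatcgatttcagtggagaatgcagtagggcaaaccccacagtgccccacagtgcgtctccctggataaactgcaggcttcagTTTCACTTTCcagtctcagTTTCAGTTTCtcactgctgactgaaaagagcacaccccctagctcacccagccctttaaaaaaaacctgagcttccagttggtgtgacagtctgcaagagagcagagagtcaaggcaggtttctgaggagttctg

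Several of the largest differences of all genes belonged to interferon-inducible families outside that list. *Ifi202b*, a DNA-binding protein of the interferon-inducible cluster on chromosome 1, had means of 741 and 2.25 (−7.84). *Ifi211*, of the same cluster, went the other way, from 8.88 to 491 (5.64). *H2-Q1*, a class I gene of the major histocompatibility complex, had means of 360.5 and 2.31 (−6.77), and the GTPase *Gbp2b* 292 and 8.78 (−4.90). At day 0 the differences were −9.37 for *Ifi202b*, 6.31 for *Ifi211*, −6.09 for *H2-Q1* and −9.75 for *Gbp2b*. In EMD -/y cells at day 2 they were −7.56, 5.51, −6.11 and −4.21. These genes differ in sequence between mouse strains, and the part of strain or of read assignment in their values was not tested.

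The cells of both lines carried the defining RNAs of differentiating muscle at day 2. *Myog*, the transcription factor of the commitment to differentiate, had means of 47406 in wildtype and 43238 in S54F (−0.13), and *Myod1*, the determination factor, 19775 and 17776 (−0.15). *Myh3*, the embryonic myosin heavy chain, had means of 248017 and 203699 (−0.28). The muscle intermediate filament gene *Des* differed by −0.10, the skeletal actin gene *Acta1* by −0.24, the creatine kinase gene *Ckm* by −0.017, the troponin T gene *Tnnt3* by −0.30 and the fusion gene *Mymk* by −0.14. None of these markers was past the fold. Of the 12 markers of the lineage, the genes of progenitors *Pax7* and *Myf5* were.

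Of 20 myogenic transcription factors, 5 were past the fold, all higher, beside 4.10% of all genes (list median 0.26). *Pax7*, the transcription factor that marks satellite cells, had means of 51.2 and 408 (2.97). *Myf5*, a determination factor of progenitors, had 127 and 298 (1.22). The inhibitors of differentiation *Id1*, *Id2* and *Id3*, which capture the partners of myogenic factors, differed by 1.49, 1.04 and 1.46. *Pax7* differed by 1.16 at day 0 and 2.73 at day 1. *Id1* and *Id3* came close to equal before day 2, with 0.12 and 0.10 at day 0 and −0.024 and −0.24 at day 1. From day 1 to day 2, *Id3* was −2.15 in wildtype and −0.44 in S54F, and *Id1* was −1.60 and −0.088. In the other lines at day 2, *Pax7* differed from the same wildtype libraries by 2.63 in EMD -/y, 4.11 in Δ95–99, −2.55 in Q133H and 3.73 in +EMD cells. *Six2*, a homeobox factor of mesenchyme that the rule for large differences named, had means of 7.95 and 227 (4.67).

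Of 25 genes of myosin and the thick filament, 4 were past the fold, all lower, beside 3.32% of all genes (list median −0.043). *Myh2*, a fast myosin heavy chain of adult oxidative fibres, had means of 3620.2 and 74.3 (−5.59). *Myl2*, the regulatory light chain of slow and cardiac muscle, had 172 and 21.7 (−2.92), the myosin light chain kinase gene of skeletal muscle *Mylk2* 161 and 25.4 (−2.61), and *Myh7b*, an ancient slow myosin, 150.2 and 63.0 (−1.24). The other heavy chains were not past the fold. *Myh1* of fast fibres differed by 0.85, slow *Myh7* by 0.45, perinatal *Myh8* by 0.074 and *Myh4* by 0.059. *Myh2* was lower at day 0 (−3.70) and day 1 (−4.90), and at day 2 in EMD -/y (−3.76), Δ95–99 (−5.76), Q133H (−6.56) and +EMD cells (−7.36), against the same wildtype libraries. *Myl2* differed by 0.42 at day 0 and −1.39 at day 1. The median of the thick filament list was 0.37 at day 0 and −0.91 at day 1. At day 1, 10 of its 25 members were past the fold and lower and none higher, beside 4.52% and 3.87% of all genes. The thin filament list, described below, had medians of 0.099 at day 0 and −0.49 at day 1. For excitation-contraction coupling they were 0.29 and −0.56.

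Among 41 genes of the thin filament and Z-disc, 3 were higher and 2 lower, beside 4.10% and 3.32% of all genes (list median −0.045). *Ankrd2*, an ankyrin repeat protein of the I-band and nucleus that responds to stretch, had means of 10832 and 198, a difference of −5.77. It was as low at day 0 (−5.69) and day 1 (−6.49). *Tcap*, which links titin at the Z-disc, had 1376 and 566 (−1.28), after −3.47 at day 1. *Tcap* came up by 5.06 from day 1 to day 2 in S54F and by 2.61 in wildtype, so that the gap narrowed. *Actc1*, the actin of heart and fetal skeletal muscle, had means of 90123 and 212150 (1.24). *Xirp2*, an actin-binding protein of cell junctions, differed by 1.69 and *Myoz1*, which tethers calcineurin to the Z-disc, by 1.36. *Myoz1* had been at −1.19 at day 1.

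Of 25 genes of excitation-contraction coupling, *Pvalb* was higher and *Camk2b* lower, beside 4.10% and 3.32% of all genes (list median −0.22). *Pvalb*, the calcium buffer of fast fibres, had means of 18.0 and 356 (4.23), with 2.42 at day 0 and 4.01 at day 1. *Camk2b*, a calcium-dependent kinase, had 471 and 118 (−1.99). At the neuromuscular synapse, none of 13 genes was higher and 3 were lower, beside the same 3.32% of all genes (list median −0.18). The 3 lower genes were *Ache*, the esterase that clears acetylcholine (59.3 to 20.9, −1.46), *Colq*, the collagen tail that anchors it (309 to 112, −1.45), and *Lrp4*, the receptor for agrin (6073 to 2738, −1.15). The receptor subunit gene *Chrna1* differed by 0.15.

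Members of the remaining muscle lists were past the fold in both directions, where 7.42% of all genes were past it. Of 25 fusion and adhesion genes, *Mymx*, a microprotein that opens the fusion pore, was higher (1080.5 to 2204, 1.03), with a median of −0.10 for the list. Of 15 genes of the dystrophin-glycoprotein complex, *Dmd*, dystrophin, was lower (55.8 to 20.7, −1.38), with a median of −0.017. Of 26 genes of muscle energy metabolism, *Gapdh* (2297 to 10474, 2.19) and the AMP deaminase gene *Ampd1* (1.13) were higher and *Cox6a2*, the muscle form of a cytochrome oxidase subunit, was lower (−1.04), with a median of −0.048. *Gapdh* has many near copies in the genome, and its difference was 4.04 at day 0 and 0.46 at day 1. None of 77 genes of the mitochondrial respiratory chain was past the fold, and the median of 0.024 took the opposite sign where both columns were scaled to the same total.

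Genes of the insulin-like growth factor axis stood high in S54F. Of 13 members in the table, 7 were past the fold and higher and 1 was lower, beside 4.10% and 3.32% of all genes. The median was 1.00, the value of *Igf1*. It was 0.96, below the fold, where both columns were scaled to the same total. The ligand gene *Igf1* had means of 346 and 694 (1.00), while *Igf2*, the most abundant member per length, had 111132 and 111830 (0.0090). Most of the higher members encode binding proteins, which carry the ligands and limit or prolong their action. *Igfbp5* had means of 10079.7 and 24903 (1.30) and *Igfbp3* 1603 and 5663 (1.82). *Igfbp4* differed by 1.81, *Igfbp6* by 1.32, *Igfbp2* by 1.15 and the receptor substrate gene *Irs2* by 1.20. *Igfbp7*, a matrix-bound relative, was the lower member (613 to 206, −1.57). The receptor gene *Igf1r* differed by 0.17. The median of the list was 0.13 at day 0 and 0.19 at day 1. In EMD -/y cells at day 2, against the same wildtype libraries, it was 0.90, and it was 0.33 in Δ95–99, 0.24 in Q133H and 0.60 in +EMD cells.

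The imprinted gene *Mest*, which encodes a hydrolase of the endoplasmic reticulum, was among the higher genes with high means (2164 to 15704, 2.86), as *Cdkn1c* was. *Dlk1*, an imprinted membrane protein related to Notch ligands, had means of 6.23 and 50.4 (2.83). The differences of *Mest* were 1.19 at day 0 and 1.97 at day 1, and those of *Dlk1* 2.75 and 1.63. In the other lines at day 2, *Mest* differed by 2.40 in EMD -/y, 3.30 in Δ95–99, 1.48 in Q133H and 3.24 in +EMD cells, against the same wildtype libraries. These 3 imprinted genes were set together after their values were seen. Of other imprinted genes, *Igf2* differed by 0.0090 and *Igf2r* by 0.0078.

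Wnt genes were past the fold in both directions. Of 29 members, 7 were lower and 4 higher, beside 3.32% and 4.10% of all genes (list median −0.42). Among ligands, *Wnt10a* had means of 525 and 18.3 (−4.77) and *Wnt11* 43.6 and 5.63 (−2.75), while *Wnt10b*, which restrains fat cell formation in muscle progenitors, had 12.8 and 57.5 (2.08). *Axin2*, a feedback inhibitor and common readout of the β-catenin branch, had 281 and 43.7 (−2.66). Its difference was 0.50 at day 0 and −2.48 at day 1. From day 0 to day 1 *Axin2* went by 3.50 in wildtype and 0.43 in S54F. Among secreted modulators, *Sfrp2* was at −3.63 and *Dkk3* at −1.74. The receptor gene *Fzd1* differed by −1.04 and *Fzd4* by 1.47. Of the nuclear partners of β-catenin, *Tcf7* was lower (−1.06) and *Lef1* higher (1.35), and the feedback inhibitor *Nkd1* was higher (1.32).

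In the TGF-β and BMP list, 5 of 30 genes were higher and 3 lower, beside 4.10% and 3.32% of all genes (list median −0.019). Ligands and their secreted inhibitors held most of the members past the fold. *Mstn*, myostatin, which limits muscle growth, had means of 239.7 and 808 (1.75), and *Fst*, follistatin, which captures myostatin and activins, had 5216 and 2144 (−1.28). The inhibitor and its target thus lay in opposite directions. *Bmp2* was higher (14.7 to 101, 2.70) and *Bmp4* lower (27.4 to 1.88, −3.30). Of the BMP antagonists, *Grem1* was higher (43.1 to 381, 3.12) and *Nog*, noggin, was lower (485 to 151, −1.67). The receptor gene *Acvr2b*, which binds myostatin, was higher (1.36). Outside the list, *Pmepa1*, a target and inhibitor of TGF-β signalling, had means of 7670.5 and 3605 (−1.09).

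Notch, Hippo and Yap lists were set beside the 7.42% of all genes past the fold. Of 17 Notch genes in the table, *Dlk1* was higher and *Nrarp*, a feedback inhibitor, lower (−1.04), with a median of 0.15. None of the 17 genes for Hippo kinases, Yap, Taz and Teads was past the fold (median −0.035), and *Yap1* differed by 0.19. Of 20 target genes of Yap, *Igfbp3*, which is also in the growth factor list, *Crim1*, a membrane protein that holds BMPs (1.48), and *F3*, tissue factor (1.46), were higher. The median was 0.069, and the classical targets *Ccn1* and *Ccn2* differed by −0.23 and 0.083.

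Of 11 fibrillar collagens, none was past the fold, where 7.42% of all genes were, 4 were below 0, and the list median was 0.49. *Col3a1* had means of 14054 and 23759 (0.76), and *Col1a1* 4528 and 7311 (0.69). *Col1a2*, with the largest wildtype mean of the list, went the other way, from 15092 to 11759 (−0.36), as did *Col5a2*, from 11299 to 7657 (−0.56). Their list had medians of −0.22 at day 0 and −0.90 at day 1, below 0 on both days. Of 27 other collagens, 4 were higher and 2 lower, beside 4.10% and 3.32% of all genes (list median 0.27). That list median was 0.053 with 10 in place of 1 added to each mean, and 0.47 with 0.1. *Col6a3*, a chain of the microfibrils that surround muscle fibres, had means of 497 and 1975 (1.99), and *Col7a1* of anchoring fibrils 72.3 and 239.6 (1.72). *Col16a1* and *Col19a1* differed by 1.38 and 1.31. *Col23a1*, a transmembrane collagen, was lower (904 to 171, −2.40), as was *Col26a1* (−1.18).

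The lists of basement membrane and matrix glycoproteins stood beside 4.10% of all genes past the fold and higher and 3.32% lower. Of 21 basement membrane genes, 8 were above 0 and 13 below, with a median of −0.26. Past the fold were 2, both lower. They were *Col4a5* (444 to 131, −1.76) and the laminin gene *Lama4* (56.4 to 20.8, −1.40). *Hspg2*, perlecan, the most abundant member per length, differed by −0.46. Among 30 matrix glycoproteins and elastic fibre genes, 4 were higher and 1 lower (median 0.040). The summed means of that list were 61541 in wildtype and 100886 in S54F. *Sparc*, a collagen-binding glycoprotein and its most abundant member per length, was just below the fold (24215 to 47817, 0.98). The elastic fibre gene *Emilin1* differed by 1.93, *Fbln1* by 1.43, the fibrillin gene *Fbn2* by 3.10 and *Reln*, reelin, by 1.98. *Efemp1*, a fibulin, was lower (−1.07), after −5.17 at day 0 and −3.02 at day 1.

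The lists of proteoglycans, proteases and integrins stood beside 4.10% of all genes past the fold and higher and 3.32% lower. Of 22 proteoglycans and syndecans, 4 were higher and none lower (median 0.38). *Cspg4*, a proteoglycan of precursor cells and pericytes, had means of 47.6 and 190.4 (1.98). *Aspn*, asporin, differed by 1.85, *Dcn*, decorin, by 1.11 and *Sdc3*, a syndecan of satellite cells, by 1.04. Of 31 proteases, inhibitors and cross-linkers, 4 were higher and 1 lower (median 0.38). The metalloprotease genes *Mmp3*, *Mmp13* and *Mmp23* differed by 2.74, 2.18 and 1.27, and the lysyl oxidase gene *Loxl2*, whose product cross-links collagen, by 1.47. *Adamts2*, which trims procollagen, was lower (268 to 68.7, −1.95). Of 19 integrins, *Itgb3* was higher (1.43) and *Itga11*, of the collagen receptor, lower (−1.67), with a median of 0.065.

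At the nuclear envelope, *Emd* alone among 25 genes of the envelope and of emerin's partners was past the fold (list median 0.091). Across all genes, 7.42% were past it. *Lmna*, of the A-type lamins, had means of 18417 and 16410.4 (−0.17), and *Banf1*, which encodes BAF, 1179 and 1581 (0.42). The LEM domain genes *Lemd2*, *Lemd3* and *Tmpo* differed by −0.064, 0.10 and 0.033. None of 21 genes of histone deacetylases and the NCoR complex was past the fold. *Hdac3*, the deacetylase of that complex, differed by −0.079, *Hdac1* by 0.39 and *Ncor1* by −0.055. The median of the list was −0.010 and changed sign where the columns were scaled to a median difference of 0 for genes with an average of at least 100.

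Lists of stress and damage genes stood beside the same 7.42% of all genes past the fold. Among 19 p53 targets, the death receptor gene *Fas* (−1.20) and *Pmaip1*, a killer protein of mitochondria (−1.10), were lower, with a median of 0.11. Among 16 hypoxia genes in the table, *Adm*, adrenomedullin, was lower (−1.53), with a median of 0.18. Among 23 genes of oxidative and amino acid stress, the quinone reductase gene *Nqo1* (1.22) and *Srxn1*, sulfiredoxin (1.16), were higher and *Slc7a11*, the cystine carrier (−1.06), was lower (median 0.23). Of 82 genes of cytosolic ribosomal proteins in the table, *Rpl26* and *Rpl30* were past the fold, both higher, 72 were above 0 and the median was 0.18.

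Among the genes with the largest differences, *Rpl26*, a protein of the large ribosomal subunit, had means of 60.4 and 8538 (7.12), with 5.87 at day 0, 6.66 at day 1 and 7.19 in EMD -/y cells at day 2. *Eif2s3y*, the copy on the Y chromosome of a translation factor subunit, had 21.8 and 1572 (6.11), while its X-linked twin *Eif2s3x* differed by 0.025. The other Y-linked genes of the list, *Ddx3y*, *Uty* and *Kdm5d*, differed by −0.27, −0.16 and −0.23, and *Xist* was not in the table. *Xlr3b*, an X-linked gene of lymphoid cells, had 1.52 and 203 (6.34), while its neighbour and near copy *Xlr3a* went from 30.0 to 1.28 (−3.76). *Ptprm*, a receptor tyrosine phosphatase of cell contacts, had 5.13 and 414 (6.08), and *Pcdhga8*, a clustered protocadherin, 4.73 and 321 (5.81). *Kpna2*, an importin that carries proteins into the nucleus, had 40.4 and 1499 (5.18). The folate receptor gene *Folr1* differed by 4.96, the ubiquitin ligase gene *Marchf11* by 4.52 and the adenylyl cyclase gene *Adcy1* by 4.19.

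On the lower side, *Steap1*, a membrane protein of the metalloreductase family, had means of 23167 and 313 (−6.21), with −4.75 at day 0 and −4.95 at day 1. *Eno1b*, an intronless form of enolase, had 3315 and 31.2 (−6.69), while *Eno1* differed by 0.66. *Cd84*, a receptor of immune cells, had 378 and 4.51 (−6.10), *Cybrd1*, a ferric reductase, 238 and 4.12 (−5.54), and *Cass4*, a scaffold of focal adhesions, 507 and 21.0 (−4.53). In EMD -/y cells at day 2, against the same wildtype libraries, *Steap1* differed by −6.32, *Eno1b* by −7.93, *Cd84* by −5.93 and *Cybrd1* by −4.27.

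Reads of sequence that genes share can be given to either, so the differences of such genes are uncertain. Of the 37 genes named by size of difference or mean that the transcript reference held, 12 shared at least 200 bases at 97% identity or more with a transcript of another gene. *Eno1b* shared 1652 bases with *Eno1*, *Kpna2* 1968 bases with a gene of another locus, *Xlr3b* 3785 bases with *Xlr3a*, *Ifi211* 1101 bases with *Ifi205* and *Rpl26* 438 bases with a processed pseudogene. *Pcdhga8* shares its last exons with the other genes of its cluster. *Emd*, *Steap1*, *Ankrd2*, *Ptprm* and *Eif2s3y* had no such match. For *Cdkn1c* (422 bases), *Myh2* (240 bases) and *Cass4* (1134 bases) the match was a transcript of antisense kind, and *Mest* shared 912 bases with *Copg2*, all at an identity of 100%. This search was added after the values were seen.

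Of the 8 genes past the fold with the highest means on each side, those higher in S54F were of several kinds. Besides *Actc1*, *Cdkn1c*, *Igfbp5* and *Mest*, they were *Vim*, the intermediate filament of progenitors and fibroblasts (19009.8 to 43032, 1.18), the tubulin gene *Tuba1b* (1.33), the elongation factor gene *Eef1g* (1.05) and the small heat shock gene *Hspb8* (1.12). *Tuba1b* and *Eef1g* have near copies in the genome. The lower side held *Steap1*, *Ankrd2*, *Pmepa1* and *Iigp1*, and with them *Rhob*, an endosomal GTPase (14128 to 6769, −1.06), the membrane gene *Emp2* (−1.12), *Padi2*, which turns arginine into citrulline (7010.2 to 1764, −1.99), and *Ndrg4* (−1.74). As given above, *Iigp1* was not past the fold under a scaling that brought it to −0.99.

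Among markers of other cell types, 5 genes were past the fold, all higher and given below, where 4.10% of all genes were past it and higher. The part of other cells in the results above was not tested. The adipocyte list had 4 of 8 genes in the table, summing to 717 in wildtype and 788 in S54F, with *Lpl* the highest per length and *Adipoq*, *Cfd*, *Cidec* and *Plin1* not in the table. Endothelial markers summed to 19.3 and 22.3 over 5 of 7 genes, led per length by *Cdh5*, with *Emcn* and *Tie1* not in the table. Leukocyte markers summed to 278 and 231 over 6 of 8 genes, led by *Itgam*, with *Adgre1* and *Tyrobp* not in the table, and *Ptprc*, which defines leukocytes, had means of 0.300 and 0.373. No member of these lists was past the fold. Their medians were 0.31, 0.24 and 0.078.

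Markers of fibroblasts summed to 1403 in wildtype and 2021 in S54F over 11 of 12 genes, with *Tcf21* not in the table. *Ly6a*, a surface antigen also found on muscle progenitors and the highest member per length, had means of 309.7 and 1028 (1.73), and *Meox1* (1.69) and *Twist2* (1.01) were higher as well. *Pdgfra*, which defines fibro-adipogenic cells, had means of 27.7 and 16.5 (−0.71), and the median of 0.012 changed sign where both columns were scaled to the same total. Smooth muscle markers summed to 94069 and 88071 over 7 genes, led by *Acta2* (−0.11), an actin that cultured muscle progenitors also make, with none past the fold and a median of 0.47. Markers of Schwann cells and neurons summed to 119 and 323 over 6 of 7 genes, with *Sox10* not in the table and *Tubb3*, a tubulin, past the fold (104 to 302, 1.53; list median 0.35). Bone and cartilage markers summed to 682 and 921 over 7 of 8 genes, with *Ibsp* not in the table, *Bglap* the highest per length in wildtype (−0.97) and *Sox9* past the fold (263 to 538, 1.03; list median −0.024).

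Many genes past the fold at day 2 were so at the earlier times, which were sampled from other libraries of the same lines. Of the 706 higher genes, 269 were past the fold and higher at day 0, which is 38.1% of them and 39.0% of the 689 higher genes of day 0. At day 1, 343 were, 48.6% of the 706 and 50.6% of the 678 of that day. Of the 572 lower genes, 259 were lower past the fold at day 0 (45.3%, and 34.8% of 745) and 374 at day 1 (65.4%, and 47.2% of 792). Of all genes, 3.94% were past the fold and higher at day 0 and 3.87% at day 1. The shares of all genes past it and lower were 4.26% and 4.52%. Past the fold in the opposite direction were 17 and 4 of the higher genes and 7 and 1 of the lower genes, at days 0 and 1. Of the 25 mitosis genes past the fold at day 2, *Bub1b* was also past it at day 1 (1.01) and *Pttg1* lay past it on the lower side at day 0 and day 1, while the others were not past it before. *Ankrd2*, *Steap1*, *Rpl26* and *Cdkn1c* were past it at all 3 times.

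By position, genes of chromosomes 15 and 3 had medians apart from those of other chromosomes, a pattern looked for after other values were seen. Of 406 genes of chromosome 15 with an average of at least 100, 84.7% were above 0, with a median difference of 0.27. Of 491 such genes of chromosome 3, 28.5% were above 0, with a median of −0.17. The medians of the other autosomes and the X chromosome lay between −0.050 (chromosome 7) and 0.033 (chromosome 2). The medians were 0.15 and 0.27 for chromosome 15, and −0.26 and −0.19 for chromosome 3, at days 0 and 1. In EMD -/y cells at day 2, against the same wildtype libraries, they were 0.031 for chromosome 15 and −0.10 for chromosome 3. In Δ95–99, Q133H and +EMD cells they were −0.022, −0.037 and −0.058 for chromosome 15, and 0.076, 0.43 and −0.22 for chromosome 3. Medians of other chromosomes lay away from 0 in these lines as well, with 0.34 in Δ95–99 and 0.46 in +EMD cells for chromosome 8 and 0.47 in +EMD cells for chromosome 16. Some of the genes named above lie on these chromosomes, among them *Espl1*, *Ly6a*, *Tuba1b*, *Pvalb* and *Marchf11* on chromosome 15 and *Gbp2b* on chromosome 3. These shifts stand beside the larger differences of such genes, and the part of the shifts in them was not tested.

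**Figure D4:**
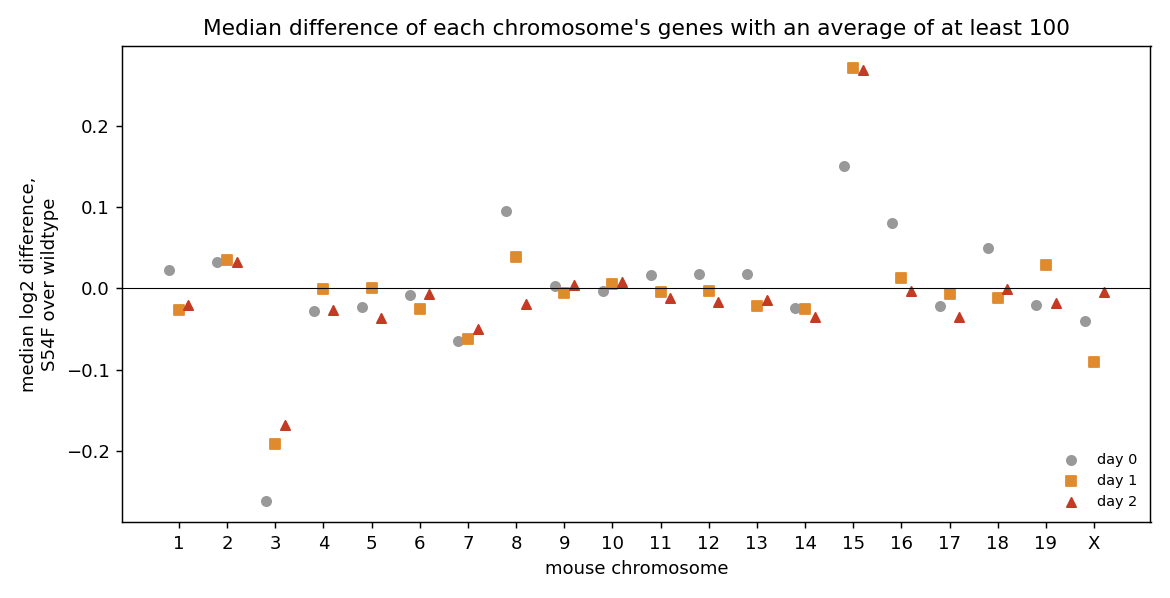
Median log2 difference between S54F and wildtype (y axis) of the genes of each autosome and the X chromosome (x axis) with an average of at least 100, at days 0, 1 and 2. Of those drawn, chromosome 15 has the highest median at each day (0.27 at day 2) and chromosome 3 the lowest (−0.17 at day 2).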

How the data were processed

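The deposited signal is a DESeq2-normalised read count that the authors pooled into 1 Expression value per group, with size factors set within each table. The submitters' processing notes and methods name HISAT2, mm10 and DESeq2, without versions. The other columns of the table, a log2 ratio of the Expression values, p-values, adjusted p-values and a call of direction, were not used for any result. The average of both Expression columns is a mean over 6 libraries, while their ratio is the moderated fold of the authors, so low means are drawn up. Differences were log2((S54F mean + 1)/(wildtype mean + 1)), and genes past the fold had a difference of at least 1 in size and an average of at least 10. No test was made, since no value per sample was used.

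Of 15679 numeric gene IDs, 15658 matched a symbol of the RefSeq table (GRCm38.p6, the build of mm10), and 1536 IDs were predicted genes. Genes named in the text were *Emd*, the 12 with the largest and the 12 with the smallest difference among annotated genes with an average of at least 100, the 8 past the fold in each direction with the highest mean, and members of the gene lists with large differences, high means or a defining role. Other genes were named after their values were seen. A few members of the lists are not reported here by name, though the list values include them. The members and lists were chosen with earlier results of these data known. Alternatives to the pseudocount, the filter, the scaling and the fold were run, with a tolerance of 0.25 on the log2 scale and of 1.5 times for counts. Python 3.11.15, numpy 2.4.6, pandas 2.3.3, matplotlib 3.10.9 and blastn 2.17.0+ were used, and the counting was tested on simulated data.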

Additional observations from a re-analysis of the deposited data

How the results depend on the processing

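The values are group means of 3 samples each with no spread, from moderated ratios, so depth per library, replicate error and left-out replicates were not analysed here. The methods give technical replicates within biological ones, not stated per sample. No paired analysis was possible because the groups are separate lines with 1 mean each. With an average of at least 100, the counts were 273 genes higher, 284 lower and 89 list members past the fold. With a fold of 1.5 they were 1471, 1221 and 266, and with a fold of 4 they were 179, 204 and 40. These changes follow from the stricter or looser limits. Under the other alternatives (pseudocounts of 0.1 and 10, no filter, both scalings, no predicted genes) the 18 counts were within 1.5 times of 706, 572 and 140. The share of higher genes among those past the fold was 55.2%, and ran from 46.7% with a fold of 4 to 60.1% without predicted genes. Of 152 values for the 38 genes named by rule, 126 were within 0.25 and none changed sign. The other 26 came with pseudocounts, 6 with 0.1 and 20 with 10. With a pseudocount of 10, *Xlr3b* went from 6.34 to 4.21, *Emd* from −8.47 to −6.43 and *Ifi202b* from −7.84 to −5.94. The list medians were run under pseudocounts and scalings chosen after seeing the data. Of 160 values, 157 were within 0.25. The other 3 came with a pseudocount of 10, which brought Wnt to −0.14, markers of Schwann cells and neurons to 0.066 and those of smooth muscle to 0.17. In all, 37 of 40 lists kept their sign. The exceptions were histone deacetylases and NCoR (−0.050 to 0.0020), fibroblast markers (−0.024 to 0.024) and the respiratory chain (−0.016 to 0.036). The scaling to the same total moved the median of all genes by −0.029. The other scaling set the median of genes with an average of at least 100 to 0 and moved that of all genes by 0.0077.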

Other observations

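Genes near *Emd* on the X chromosome were looked at after other values were seen. Of 88 genes that start within 10 Mb of *Emd*, 3 were past the fold and higher and 4 were lower. On the rest of the chromosome, 26 of 461 were higher and 13 lower. Over all genes, 4.10% were past the fold and higher and 3.32% lower. The genes next to *Emd* lay below the fold: *Rpl10*, a ribosomal protein gene, differed by 0.37, *Flna*, which encodes the actin cross-linker filamin A, by 0.86, and *Dnase1l1* by −0.43. Farther away, *Aff2*, a gene of RNA processing silenced in a form of X-linked intellectual disability, had means of 3.72 in wildtype and 190.1 in S54F cells (5.34). *Slitrk4*, a neuronal membrane protein, had means of 39.0 and 1.39 (−4.07), and *Mamld1* 53.2 and 21.6 (−1.26).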
